A study of Mus musculus with 6 samples.

Results

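The SOCS family of cytokine signalling inhibitors was described in mouse macrophages that received 1 of 3 siRNAs, with and without a TLR4 agonist. Its 8 genes, Socs1 to Socs7 and Cish, were found by symbol among the 23282 symbols of the deposited table, and the most abundant transcript on average stood for each gene. Of the 8 genes 7 had a mean of at least 10 reads and were among the 7995 genes tested, and Socs2 was not. The cells were peritoneal macrophages elicited with thioglycollate in C57BL/6 females, and all were given an siRNA for 48 hours. The 3 siRNA labels were control (siCtl), Smyd5 (siSmyd5) and Phf2 (siPhf2). Each was combined with vehicle or with KLA, which the labels give as LPS (Kdo2-LipidA), at 100 ng per ml for 4 hours. Each of the 6 combinations was 1 library of poly(A) RNA, so no group had replicates, and the labels do not say whether libraries came from separate animals or cultures. No source used here gives the ages of the mice.

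SOCS proteins are feedback inhibitors of cytokine signalling. Cytokine receptors of this class activate JAK kinases, the JAKs activate STAT transcription factors, and STATs in turn switch on SOCS genes. Each SOCS protein has an SH2 domain that binds phosphorylated tyrosine and a SOCS box that recruits an elongin and cullin ubiquitin ligase. SOCS1 and SOCS3 also inhibit JAK kinase activity directly, SOCS1 chiefly below interferon receptors and SOCS3 below receptors that use the gp130 chain. CIS, the product of Cish, and SOCS2 act below receptors that signal through STAT5, and SOCS4 to SOCS7 have mainly been tied to receptor tyrosine kinases and insulin signalling. In macrophages, ligands of Toll-like receptors induce SOCS1 and SOCS3, partly through the cytokines and type I interferon that the cells release.

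The start regions of the 3 genes that rose with KLA (below) are shown because 2 kinds of motif, the spacing of a STAT site and that of an interferon-stimulated response element, were searched there. The RefSeq promoter table, on build GRCm38.p6, held 4 of the 8 genes, in windows from 250 bases before to 50 bases after an annotated start. Capitals mark every match on either strand to TTCNNNGAA, the spacing of a STAT site, or to 2 copies of GAAA with 2 bases between them, the spacing of an interferon-stimulated response element. The sequences run 5′ to 3′ along the gene, and positions are counted from the annotated start, the first base after it being 1.
Socs1: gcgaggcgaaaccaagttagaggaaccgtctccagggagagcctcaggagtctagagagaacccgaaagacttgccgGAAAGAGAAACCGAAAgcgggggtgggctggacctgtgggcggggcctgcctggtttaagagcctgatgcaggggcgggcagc
Socs3: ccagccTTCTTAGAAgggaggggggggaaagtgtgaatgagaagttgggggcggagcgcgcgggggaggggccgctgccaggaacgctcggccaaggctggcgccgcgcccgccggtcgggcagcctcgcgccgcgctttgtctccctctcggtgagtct
Cish: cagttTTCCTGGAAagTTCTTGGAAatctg

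The Socs1 stretch (chr16:10785537-10785696, minus strand) is the 160 bases before the start and held 2 overlapping matches to the paired GAAA motif, beginning at −83 and −77. The Socs3 stretch (chr11:117969367-117969526, minus strand) covers the same 160 bases of its gene and held 1 match to TTCNNNGAA, at −154. The Cish stretch (chr9:107296654-107296683, plus strand) is 30 bases across the start, with matches to TTCNNNGAA beginning at positions 1 and 12. TTCNNNGAA reads the same on both strands and was present in 8.3% of all 32851 windows of the table, and the paired GAAA motif in 3.44%. The Socs4 window held neither. A match describes letters in these windows and not binding.

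In the libraries as a whole, 420149 to 1429509 reads fell on the chosen transcripts. The ribosomal RNA precursor Rn45s took 66.7% and 71.6% of them in the siPhf2-labelled libraries, against at most 1.2% in the other 4, which left 192420 and 119144 reads for all other genes. Levels are therefore given as RPM, reads per 1000000 after TMM scaling, which sets library sizes from the bulk of genes, and every interval covers counting error only. Whole reads came out of the siCtl and siPhf2 columns only with each other's header total, so names or totals were swapped there, and arms are called by their labels. Smyd5 had 44 and 29 reads (vehicle, KLA) under siCtl and 9 and 20 under siSmyd5, a ratio of 0.330 (95% interval 0.141 to 0.684) under vehicle and 1.10 (0.592 to 2.02) under KLA. Phf2 had 113 and 120 reads under siCtl and 29 and 8 under siPhf2, at 2.54 (1.63 to 3.85) and 1.08 (0.457 to 2.20) of control. The libraries labelled siPhf2 thus did not show a lower target, and under vehicle Phf2 was called higher by the size rule given below. Under siSmyd5 Phf2 had 52 and 34 reads, at 0.741 (0.523 to 1.04) and 0.454 (0.300 to 0.669) of control, and was called lower with KLA by the same rule. All 9 macrophage markers measured had reads in every library, with a summed level of 3768 to 5517 RPM. Mesothelial and stromal markers summed to 713 and 753 RPM under siCtl, 545 and 592 under siSmyd5 and 410 and 288 under siPhf2. Summed markers reached 5.29 to 16.3 RPM for B cells, 0 to 7.27 for T and NK cells, 0 to 2.13 for neutrophils, 0 to 1.98 for eosinophils and 0 to 17.7 for mast cells.

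What KLA did to the family was asked with an additive fit of siRNA and agent over the 6 libraries. Socs3, Cish and Socs1 rose, Socs6 fell, and Socs4, Socs5 and Socs7 did not pass. That is 3 of 7 tested genes higher and 1 lower, where 11.2% of all 7995 genes were higher and 4.6% lower. Socs1, Socs3 and Cish reached the minimum of 10 reads only through their KLA libraries (vehicle means of 3.67, 6 and 1.33 reads), so a large difference was built into their being tested and the count is a description. The 4 dendritic cell markers summed to at most 0.661 RPM under vehicle and 8.87 to 14.4 with KLA, Flt3 and Cd209a being at 0 reads in every library. Xcr1 had reads only in siSmyd5 KLA, so the sums in siCtl KLA (20 reads) and siPhf2 KLA (2 reads) were Zbtb46 alone. The part of dendritic cells in these results was not tested. In bulk RNA, fewer cells of a type and less RNA per cell cannot be told apart.

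Socs3 (NM_007707, mm9 chr11:117827401-117830680, minus strand), the inhibitor of gp130 receptor signalling, had 10, 5 and 3 reads in the siCtl, siSmyd5 and siPhf2 vehicle libraries and 285, 210 and 41 with KLA. In RPM these were 4.1, 3.3 and 12.2 under vehicle and 126, 149 and 296 with KLA. Each KLA library was far above all 3 vehicle libraries. The averaged rise was 5.04 on the log2 scale (standard error 0.27, adjusted p 4.25e-11 by edgeR's quasi-likelihood test), and Socs3 passed under all 16 other settings tried.

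Cish (NM_009895, mm9 chr9:107199020-107204292, plus strand), which encodes the STAT5-linked inhibitor CIS, had 3, 0 and 1 reads under vehicle and 57, 32 and 6 with KLA, in the same order of labels. The KLA libraries stood at 25.3, 22.7 and 43.3 RPM, and the vehicle libraries 1.23, 0 and 4.06. These point values did not overlap, but 3 reads in the siPhf2 vehicle library would already be 12.2 RPM. Its 95% interval reached 22.6 RPM, above the lower limits of the KLA libraries (19.2, 15.5 and 15.9). Cish was tested only through its KLA reads (above), so this ordering is a description. The averaged rise was 4.61 (standard error 0.53, edgeR adjusted p 1.90e-06).

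Socs1 (NM_009896, mm9 chr16:10783902-10785629, minus strand), the inhibitor of interferon receptor signalling, had 11, 0 and 0 reads under vehicle and 38, 31 and 3 with KLA. In RPM the KLA libraries stood at 16.9, 22 and 21.6, and the siCtl vehicle library at 4.51. The siPhf2 KLA value rests on 3 reads, with a 95% interval of 4.46 to 63.2 RPM, too wide to say how close it was to the others. The averaged rise was 2.84 (standard error 0.54, edgeR adjusted p 0.000731). It did not pass without the siSmyd5 vehicle library (2.11, adjusted p 0.142) or without siSmyd5 KLA (2.15, adjusted p 0.338), in a range of adjusted p from 4.41e-09 to 0.338 over 14 settings. Without siCtl KLA, Socs1 and Cish had under 10 reads on average and were not tested.

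Socs6 (NM_018821, mm9 chr18:89037272-89063599, minus strand), an adaptor tied to insulin and KIT receptor signalling, went the other way. It had 100, 65 and 8 reads under vehicle and 39, 27 and 0 with KLA, or 41.0, 43.0 and 32.5 against 17.3, 19.2 and 0 RPM. In point values both deeper KLA libraries lay below every vehicle library. The 8 reads of the siPhf2 vehicle library have a 95% interval of 14.0 to 64.1 RPM, which spans both of those KLA values. The 0 of the siPhf2 KLA library has an upper 95% limit of 26.6 RPM. The averaged change was −1.27 (standard error 0.27, edgeR adjusted p 0.00215). The call ended with limma (−1.07, adjusted p 0.0708) and when any 1 of the siCtl or siSmyd5 libraries was left out (−1.46 to −1.55, adjusted p 0.111 to 0.191), while the direction held in all 15 settings.

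The other tested genes moved less. Socs4 (NM_080843, mm9 chr14:47896818-47911266), tied to EGF receptor turnover, had 64, 51 and 4 reads under vehicle and 84, 38 and 0 with KLA, an averaged log2 value of 0.10 (standard error 0.28, edgeR adjusted p 0.873). Socs5 (NM_019654, mm9 chr17:87507019-87536925), also linked to the EGF receptor, had 40, 17 and 5 against 48, 23 and 1 reads and an averaged value of 0.35 (0.31, adjusted p 0.542). Socs7 (NM_138657, mm9 chr11:97223865-97259856), which binds the adaptor NCK, had 25, 13 and 2 against 43, 19 and 1 reads, with 0.77 (0.34, adjusted p 0.149). For these 3 genes the vehicle and KLA libraries overlapped. Socs7 passed when either siPhf2-labelled library was left out (0.81, adjusted p 0.0483 without vehicle and 0.0495 without KLA; 0.0483 to 0.972 over 15 settings). Socs2 (NM_001168655, mm9 chr10:94874124-94878846), a regulator of growth hormone signalling, had 1 read in each of the siCtl vehicle and siSmyd5 KLA libraries and 0 in the other 4. Its 4 transcripts in the table carried the same reads. A count of 0 has an upper 95% limit of 1.64 RPM in the siCtl KLA library and 26.6 in siPhf2 KLA, so Socs2 could not be followed at this depth.

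**Figure D1:**
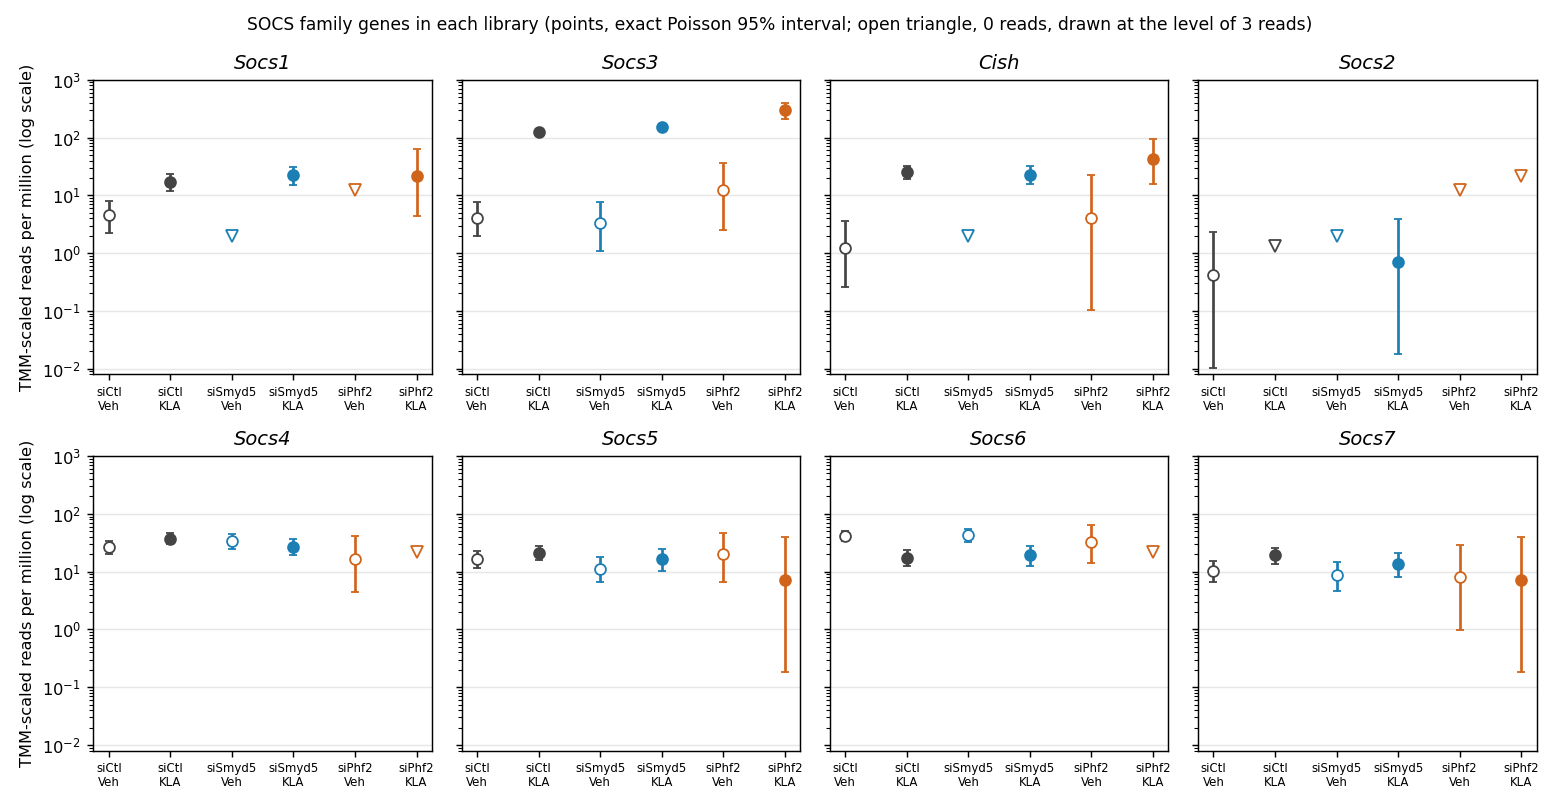
Level of each SOCS gene in each library, in RPM (TMM-scaled) on a log axis. Colours give the siRNA label, open circles are vehicle, filled circles KLA, bars are exact Poisson 95% intervals, and open triangles mark libraries with 0 reads, drawn at the level of 3 reads. Socs3 lies between 126 and 296 with KLA against 3.3 to 12.2 with vehicle, while Socs6 lies at 32.5 to 43.0 with vehicle and at 17.3 and 19.2 in the siCtl and siSmyd5 KLA libraries, with 0 reads in siPhf2 KLA.

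Whether each siRNA arm showed the same pattern was asked with ratios of 1 library to 1, which have no replicate check and no p-value. A gene with a mean of at least 10 reads was called by size on its log2 ratio and the Poisson interval of the ratio. The log2 ratio had to be at least 1 in either direction, and the interval had to exclude 1. For the log2 ratio 2 reads were added to a library of average scaled size and proportionally fewer to smaller ones. Under siCtl 3 of 7 tested SOCS genes were called higher and 1 lower (background 6.92% and 2.41% of 7995 genes), and the same 4 were called under siSmyd5 (8.68% and 3.48%). The 3 higher genes were tested only through their KLA reads (above), so the counts of this paragraph are a description. Under siPhf2 2 were called higher and 0 lower (8.42% and 6.88%).

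Socs3 was 30.8-fold higher with KLA under siCtl (95% interval 16.5 to 65), 45.1-fold under siSmyd5 (19.0 to 140) and 24.2-fold under siPhf2 (7.74 to 122). These 3 intervals overlap widely. Cish was 20.6-fold higher under siCtl (6.69 to 103) and 10.6-fold under siPhf2 (1.29 to 490). Under siSmyd5 Cish had 0 vehicle reads, and the 95% interval of its ratio began at 8.80. Socs1 was 3.74-fold higher under siCtl (1.87 to 8.10) and under siSmyd5, where its vehicle reads were 0, the interval began at 8.51. Under siPhf2 its 3 reads against 0 gave no call. Socs6 stood at 0.422 of vehicle under siCtl (0.284 to 0.616) and 0.447 under siSmyd5 (0.274 to 0.709), and under siPhf2 its 0 reads against 8 left an interval of 0 to 1.04. Differences between arms were not tested.

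**Figure D2:**
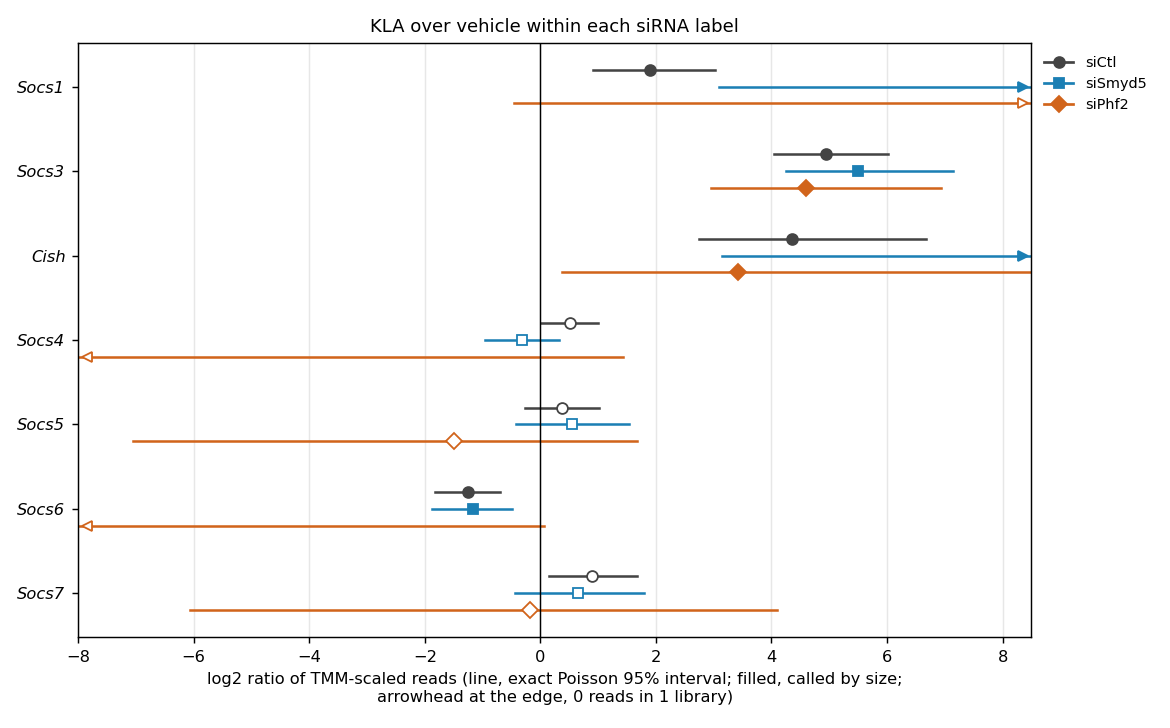
KLA over vehicle for the 7 tested SOCS genes within each siRNA label, as log2 ratios of TMM-scaled reads with exact Poisson 95% intervals. Filled symbols were called by size and arrowheads at the edge mark 0 reads in 1 of the 2 libraries. Socs3 and Cish lie right of 0 in every arm, Socs6 lies left of 0, and the intervals of the siPhf2 arm are the widest.

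The makeup of the family's reads is given as a description, since Socs1, Socs3 and Cish were added together because they had risen with KLA. Of the family's reads, Socs1, Socs3 and Cish together made up 9.45% under siCtl vehicle (Wilson 95% interval 6.43 to 13.7; 24 of 254 reads) and 64.0% with KLA (60.0 to 67.7; 380 of 594). Under siSmyd5 the shares were 3.3% (1.42 to 7.52; 5 of 151) and 71.7% (66.9 to 75.9; 273 of 381), and under siPhf2 17.4% (6.98 to 37.1; 4 of 23) and 96.2% (87.0 to 98.9; 50 of 52). The share of Socs6 was 39.4% (33.6 to 45.5) under siCtl vehicle and 6.57% (4.84 to 8.85) with KLA, and 43.0% (35.4 to 51.0) and 7.09% (4.92 to 10.1) under siSmyd5. The family's summed level was 104, 99.8 and 93.5 RPM in the siCtl, siSmyd5 and siPhf2 vehicle libraries and 264, 271 and 375 with KLA.

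**Figure D3:**
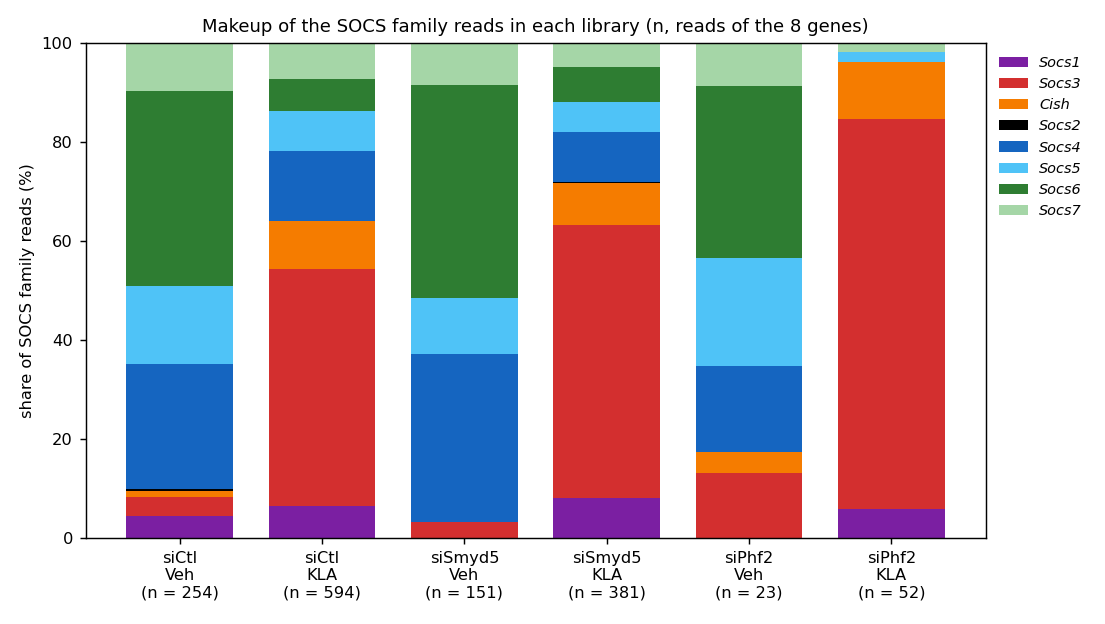
Share of the reads of the 8 SOCS genes that fell on each gene, in percent, per library, with the number of family reads under each bar. Socs6, Socs4 and Socs5 fill most of the vehicle bars, and Socs3 takes 48.0%, 55.1% and 78.8% of the siCtl, siSmyd5 and siPhf2 KLA bars.

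Levels between genes were compared per kilobase of coding sequence, since the headers of the table carry the word cds. Among 269 pairs of transcripts with equal coding length and mRNA lengths at least 200 bases apart, 76.2% had identical reads, against 3.39% of 1063 pairs with unequal coding length. In the siCtl vehicle library the order was Socs6 (25.7 RPM per coding kilobase, 95% interval 20.9 to 31.2), Socs4 (20.1, 15.5 to 25.6), Socs5 (10.2, 7.29 to 13.9), Socs1 (7.10, 3.54 to 12.7), Socs3 (6.08, 2.91 to 11.2), Socs7 (5.90, 3.82 to 8.72), Cish (1.60, 0.329 to 4.66) and Socs2 (0.691, 0.0175 to 3.85). Only Socs4 and Socs5 had neighbouring intervals that did not overlap. With KLA in the siCtl library Socs3 led at 187 (166 to 210), set apart from Cish (32.8, 24.8 to 42.5), Socs4 (28.5, 22.7 to 35.3) and Socs1 (26.5, 18.8 to 36.4), whose intervals overlapped. Socs5 (13.2, 9.77 to 17.6), Socs7 (11, 7.95 to 14.8) and Socs6 (10.8, 7.70 to 14.8) followed and overlapped each other. Socs6 was thus first of the family in the siCtl vehicle library and seventh in siCtl KLA. In the siSmyd5 KLA library it stood at 12 (7.91 to 17.5), above but with an interval overlapping those of Socs5 (10.2, 6.44 to 15.2) and Socs7 (7.77, 4.68 to 12.1).

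What Smyd5 siRNA did to the family was asked with the same fit, averaged over both agents. Smyd5 itself stood at 0.330 of control under vehicle but at 1.10 with KLA. Its averaged log2 value was −0.64 (standard error 0.42, edgeR adjusted p 0.384). The siSmyd5 KLA library thus did not show a lower target, and directions here are those of the labels. SMYD5 is a methyltransferase of histone H4 lysine 20, and the series title names this mark in the control of inflammatory genes. Of the 7 tested SOCS genes 0 passed in either direction with edgeR, where 6.39% of all genes passed, 2.74% higher and 3.65% lower. At an unadjusted p under 0.05 the count was also 0, and it was 0 with DESeq2 (5 genes with an adjusted p) and with limma, which called only 5 and 0 of all genes here and so add little. The averaged log2 values ran from −0.45 (Socs5, standard error 0.33) to 0.19 (Socs3, standard error 0.24), and those of Socs1 (−0.05, 0.49), Cish (−0.25, 0.41), Socs4 (−0.05, 0.29), Socs6 (0.09, 0.28) and Socs7 (−0.40, 0.36) lay between.

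Under vehicle 1 SOCS gene was called by size and lower under siSmyd5 (background 4.99%), and 0 were higher (2.41%). It was Socs1, with 0 reads against 11 under siCtl and a ratio with a 95% interval of 0 to 0.642. The 400 genes nearest to Socs1 in transcript length had a median log2 ratio of 0.31 in this contrast, the opposite direction. With KLA 0 SOCS genes were called higher (1.73%) or lower (3.6%). There Socs3 stood at 1.18 of control (0.982 to 1.41), Socs1 at 1.31 (0.786 to 2.16), Cish at 0.899 (0.564 to 1.41) and Socs6 at 1.11 (0.653 to 1.86). The interval of Socs3 lay within 1.41-fold of control, counting error alone considered. Socs7, the longest transcript of the family at 7005 bases, stood at 0.838 (0.394 to 1.70) under vehicle and 0.707 (0.389 to 1.24) with KLA, where the 400 genes nearest in length had median log2 ratios of −0.43 and −0.38. With the median of those genes taken off, the log2 values of Socs7 were 0.21 and −0.08. The part of the stromal markers, lower under siSmyd5 (above), was not tested.

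What Phf2 siRNA did was asked likewise. PHF2 is a histone demethylase, but its own level was not lower in these libraries, so directions are those of the labels. Socs3 rose under siPhf2, and it was the 1 SOCS gene of 7 that passed with edgeR, where 8.12% of genes were higher and 4.52% lower. Its averaged log2 value was 1.25 (standard error 0.32, edgeR adjusted p 0.0149). The call was lost with DESeq2 (1.41, adjusted p 0.0693), limma (0.82, adjusted p 0.0873), no filter on low counts (1.0, adjusted p 0.0550), reads summed over transcripts (1.22, adjusted p 0.0618) and the total without Rn45s (0.80, adjusted p 0.0791). It was also lost when any library but siPhf2 vehicle was left out (1.09 to 1.73, adjusted p 0.0864 to 0.656). With the siCtl and siPhf2 names exchanged (−1.25) or with scaling to the total (−0.99) its direction turned. Scaling to the total moved the median of all genes by −2.13 on the log2 scale in this comparison.

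Under vehicle 0 SOCS genes were called by size between siPhf2 and siCtl (10.8% of genes higher, 8.87% lower), with 0 to 8 siPhf2 reads per gene. With KLA 1 was called higher (7.9%) and 1 lower (7.25%). Socs3, with 41 against 285 reads, was 2.34-fold higher under siPhf2 after scaling (1.64 to 3.25). Socs4, with 0 against 84 reads, was lower, with an interval of 0 to 0.730. The 400 genes nearest to Socs4 in transcript length had a median log2 ratio of −0.54 there, the same direction. The interval is not corrected for that median, so the call may not hold once length is considered. The averaged log2 value of Socs4 was −1.59 (standard error 0.75, edgeR adjusted p 0.174), with an unadjusted p of 0.0484. Cish, with 6 against 57 reads, stood at 1.71 (0.603 to 3.96) and Socs1, with 3 against 38, at 1.28 (0.253 to 4.04). Socs6, with 0 against 39 reads, had an interval of 0 to 1.61. The stromal marker sum was also lower under siPhf2 (above), and its part was not tested.

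**Figure D4:**
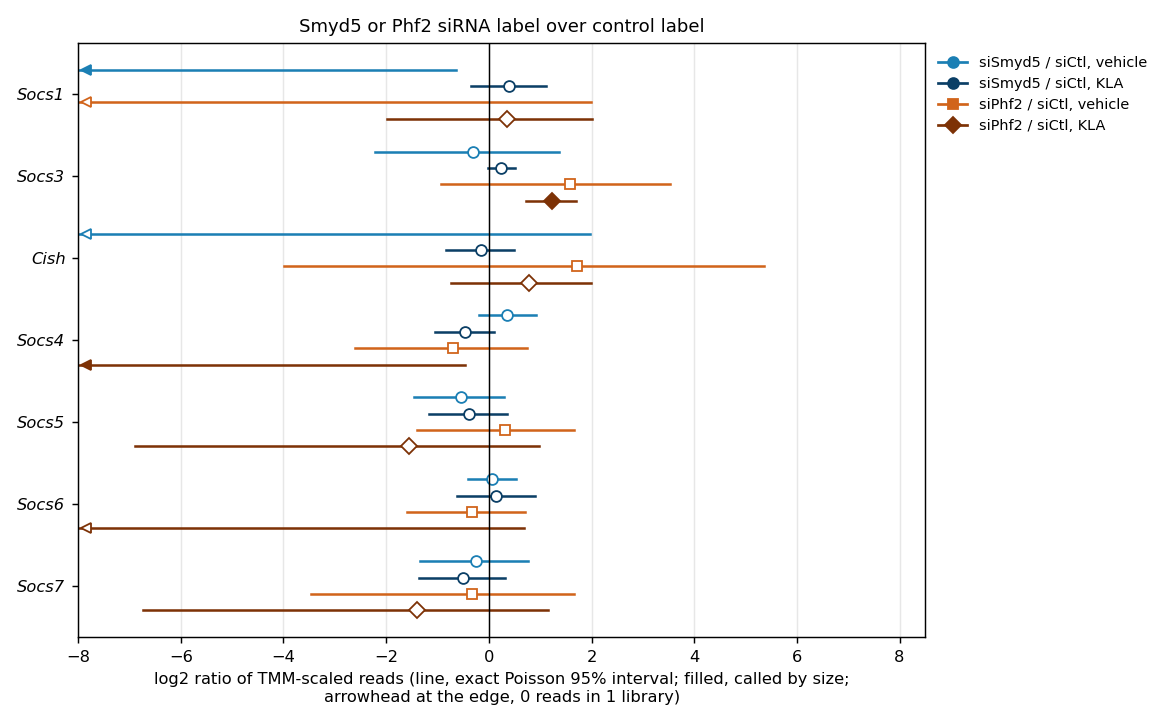
Each siRNA label over the control label under each agent for the 7 tested SOCS genes, as log2 ratios of TMM-scaled reads with exact Poisson 95% intervals. Filled symbols were called by size and arrowheads at the edge mark 0 reads in 1 of the 2 libraries. The filled symbols are Socs1 for siSmyd5 under vehicle and Socs3 (higher) and Socs4 (lower) for siPhf2 under KLA, and the other intervals cross 0.

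How the rest of the pathway stood under KLA was asked with gene lists, each set beside the median over all genes of −0.03 on the log2 scale and the 11.2% of genes higher and 4.6% lower. Of the ligands of JAK-coupled receptors 8 of 10 tested rose and 0 fell (9 and 0 at an unadjusted p under 0.05; 6 and 0 with DESeq2, 4 and 0 with limma), with a median of 4.29, or 3.23 with Csf2 at its bound. Csf2, which encodes a growth factor for macrophages, was without reads under vehicle and at least 7.73-fold higher over the 3 KLA libraries, taking 3 reads per vehicle library as the floor. The cytokine subunit genes Il23a (log2 6.64), Il27 (6.5) and Il12b (5.77) rose as well, as did Il6 (5.19), whose receptor uses gp130. Il23a, Il27 and Il12b each had 1 read in 1 vehicle library and 0 in the others, so their values are uncertain. Under siPhf2 Il23a had 1 read with vehicle and 0 with KLA. By size, 8 of the 10 ligands were called higher with KLA under siCtl, 9 under siSmyd5 and 3 under siPhf2 (6.92%, 8.68% and 8.42% of all genes). The other 19 ligands of the list, among them Ifnb1, Il10 and the STAT5 activators Il2 and Il3, had under 10 reads on average. All 8 ligands that rose averaged under 10 reads under vehicle (0 to 16 in a library) and were tested only through their KLA reads, so the counts and median of the ligands are a description.

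Among JAKs and STATs 4 of 10 tested rose and 0 fell (6 and 0 unadjusted; 4 and 0 with DESeq2, 3 and 0 with limma), with a median of 0.62. Among them were Stat5a (3.64), whose product switches on Cish, Stat2 (2.50), which carries type I interferon signals, and the kinase Jak2 (2.38). Stat5a went from 20, 6 and 8 reads with vehicle to 239, 119 and 25 with KLA. Stat3, which acts below gp130, stood at 0.25 (adjusted p 0.449). Of 22 receptor chains 4 rose and 1 fell (2 and 0 with DESeq2, 0 and 0 with limma), with a median of −0.12: Il15ra (4.25), the interferon receptor genes Ifngr1 (1.15) and Ifnar1 (1.12) and the IL-4 receptor Il4ra rose, and the IL-6 receptor Il6ra (−1.25) fell. Il15ra had 4, 1 and 0 reads under vehicle and was tested only through its KLA reads, so its rise is a description.

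Of 13 other inhibitors of the pathway 5 rose and 0 fell (5 and 2 unadjusted; 1 and 0 with DESeq2 and with limma), with a median of 0.09. Usp18 (2.65), which shuts down the type I interferon receptor, rose most, followed by the phosphatases Ptpn11 (0.84) and Ptpn2 (0.84) and the ubiquitin ligase Cbl (0.81). Of 19 STAT target genes 13 rose and 1 fell (11 and 0 with DESeq2, 10 and 0 with limma), with a median of 1.94. The chemokine Cxcl10 (8.23), Ifit1 (6.11), Isg15 (4.78) and the transcription factor Irf1 (4.01) rose most, and Bcl6 (−1.12) fell. Some of the risers were tested only through their KLA reads, among them Cxcl10, with 1, 0 and 3 reads under vehicle. The count and median of the STAT targets are therefore a description. Of 12 genes of the TLR4 receptor and its adaptors 4 rose, among them Cd14 (1.97) and the inhibitory kinase Irak3 (1.63), and 2 fell, Ticam1 (−0.86) and Tlr4 (−0.75). DESeq2 called 3 of them higher and 0 lower, and limma 2 and 0.

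**Figure D5:**
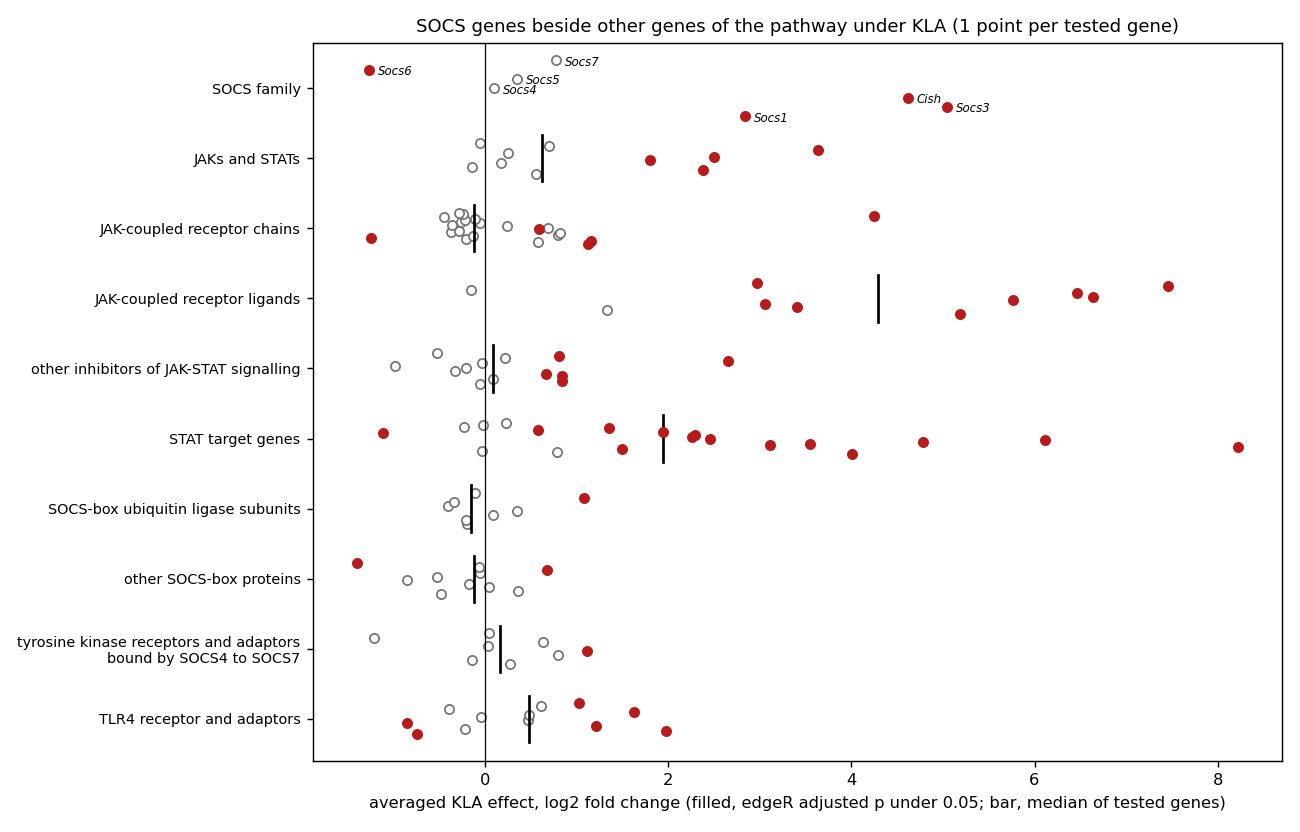
Averaged KLA effect for each tested gene of the SOCS family and of 9 other lists, as log2 fold change, with filled points past the edgeR threshold and bars at the medians of the lists. Socs3 (5.04) and Cish (4.61) lie in the range of the ligands that rose, and Socs6 (−1.27) lies left of 0.

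Under siSmyd5, where 2.74% of all genes were higher and 3.65% lower, 0 of 10 JAKs and STATs passed (0 higher and 1 lower unadjusted; 0 with DESeq2 and limma), 0 of 22 receptor chains (3 and 1 unadjusted; 0 with DESeq2 and limma) and 0 of 10 ligands (1 and 1 unadjusted; 0 with DESeq2 and limma). Of the other inhibitors only Cbl passed (−1.25), and of the STAT targets Myc (−1.17) and Bcl6 (−0.98) fell. Both lists had 0 calls with DESeq2 and with limma. Under siPhf2, where 8.12% of all genes were higher and 4.52% lower, 3 of 10 JAKs and STATs rose (Stat2 1.95, Tyk2 1.44, Stat6 0.91), 4 of 22 receptor chains rose, led by Il15ra (2.09) and Csf3r (1.99), and 6 of 19 STAT targets rose and 1 fell. Those included Cxcl10 (1.85) and Gbp3 (1.41) among the risers and Myc (−2.38) as the gene that fell. With DESeq2 2 JAKs and STATs, 2 receptor chains and 3 STAT targets were higher, with limma 1, 1 and 0, and 0 of these genes were lower with either.

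The genes most like each SOCS gene were sought among 3611 others with a mean of at least 50 reads, by the root mean squared difference of centred log2 profiles over the 6 libraries. The nearest to Socs3 was the cytokine Il1a (0.21), then Nfkbiz (0.30) and Ifit3 (0.30), against a median of 2.46 over all 3611. Cish lay nearest to Cflar (0.24), Nfkb2 (0.25) and Stat5a (0.27), and Socs1 to H2-M2 (0.34), Ccrn4l (0.35) and Vcam1 (0.37). For Socs6 these were Gadd45a (0.27), Ctns (0.28) and Slc35c2 (0.31), and for Socs4 Casp8ap2 (0.28), Nbn (0.31) and Psme3 (0.32). Socs5 was nearest to Pan3 (0.09), Ckap5 (0.11) and Itch (0.16) and Socs7 to Ahctf1 (0.12), Rsbn1 (0.12) and Pkn2 (0.14). Within the family the closest pair was Socs5 and Socs7 (0.39), then Socs3 and Cish (0.65) and Socs4 and Socs6 (0.66), and the farthest was Socs3 and Socs6 (3.85). Socs4 and Socs6 and the 6 genes nearest to them all had 0 reads in the shallow siPhf2 KLA library, so their nearness also reflects that shared 0. Socs6 passed as lower with KLA and Socs4 did not pass. All these profiles share the same 6 libraries and their depth.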

How the data were processed

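Per the file headers, the authors deposited a signal, RefSeq transcript reads put on a scale of 10000000 tags; headers also hold the word cds and a tag total. The submitters' processing notes name HOMER and mm9 with no role. Aligner, strand and treatment of multiple matches: not given in the sources used here; reads of overlapping or antisense genes may therefore be mixed. Each value was turned back into reads with a header total: 100% of values above 0 lay within 0.02 of a whole number in every column, for the siCtl and siPhf2 columns only with each other's total.

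Genes were matched on the symbol column alone, since the alias column gives Socs4 and Socs7 as older names of other members; 2 transcripts without a symbol were left out. Averaged effects came from an additive model of siRNA and agent (R 4.3.3, edgeR 4.0.16; 2-sided quasi-likelihood test after TMM; Benjamini-Hochberg threshold 0.05 over 7995 genes, 2 residual degrees of freedom), tested on simulated data; printed standard errors are the fold change over the root of the F statistic. With 1 library a group, the residual mixes noise with differences in response between arms, so a p-value reflects only how these libraries vary, which may be technical. The plan named the count test for recovered reads; limma 3.58.1 (log2 of CPM plus 15.2) and DESeq2 1.42.0 were alternatives. PCR reads without molecular identifiers are not independent molecules. The coding length of a gene is its longest in GENCODE M21. Members, lists, motifs and tests were chosen with earlier results of these data known. Named were all members, Smyd5, Phf2 and Rn45s, the genes past the threshold with the largest change in each list (at most 4 for KLA and 2 for each siRNA), and the 3 genes most like each member; Stat3, Il6, Stat6, Il6ra, Bcl6 (with KLA), Ticam1, Tlr4, Myc (siPhf2) and the untested ligands were named after their values were seen. One member of a pathway list is not reported here by name.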

Additional observations from a re-analysis of the deposited data

How the results depend on the processing

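Depth was the main limit: 3 reads equalled 1.23 to 2.13 RPM in the siCtl- and siSmyd5-labelled libraries but 12.2 and 21.6 in those labelled siPhf2. No paired analysis was possible because the labels give no replicate numbers. The additive fit already compares KLA with vehicle within each siRNA label.

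The count of SOCS genes higher in the averaged KLA effect, 3, was 1 with a mean of at least 50 reads, which leaves only Socs3 to test, and 1 to 4 with a library left out (4 without siPhf2 vehicle, where Socs7 joined). The count lower, 1, was 0 with limma and with that minimum, and 0 to 1 with a library left out. For siSmyd5 the 0 lower became 1 with the siCtl and siPhf2 names exchanged, where Socs3 turned to −1.06 (adjusted p 0.0226; 0.0226 to 1 over its 16 settings), and counts stayed at 0 with any library left out. For siPhf2 the 1 higher, Socs3, was 0 with DESeq2, limma, scaling to the total, the total without Rn45s, no filter, summed transcripts and exchanged names, and 0 to 1 with a library left out. The 0 lower became 6 with scaling to the total, 1 with the total without Rn45s (Socs4) and 1 with exchanged names (Socs3). Socs3 turned to −0.99 with the total and −1.25 with exchanged names.

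In ratios of 1 library to 1, a mean of at least 50 reads left 1 gene higher with KLA in each arm and 0 lower. It also left 0 lower for siSmyd5 under vehicle and for siPhf2 under KLA. With names exchanged 0 were lower under siCtl, 1 under siPhf2 with KLA, and 0 for siSmyd5 under vehicle. Scaling to the total gave 1 higher and 1 lower with KLA under siPhf2, and the total without Rn45s also 1 lower. For siPhf2 over siCtl, scaling to the total gave 5 lower under vehicle, where Socs5 turned to −1.55, and 0 higher and 7 lower with KLA, where Socs1 (−1.63), Socs3 (−1.01) and Cish (−1.36) turned. The total without Rn45s gave 0 higher there, and with names exchanged Socs3 was −1.22 and Socs4 4.69. The correction for transcript length, chosen after seeing the data, turned the direction of no call. The printed intervals are without it, so whether each call would still pass was not tested. The cause of these changes was not tested, beyond fewer genes or libraries entering.

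Over all genes, calls for KLA (1261) ranged from 375 with limma to 2027 without siPhf2 vehicle, for siSmyd5 (511) from 0 with limma to 2162 without siPhf2 vehicle, and for siPhf2 (1010) from 215 without siCtl KLA to 7385 with scaling to the total.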

Other observations

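SOCS proteins share their C-terminal box with other substrate receptors, and the ubiquitin ligase subunits that this box recruits were measured too. Under KLA 1 of 8 tested ligase subunits rose, the conjugating enzyme Ube2f (log2 1.08, edgeR adjusted p 0.0390), and 0 fell (1 and 0 at an unadjusted p under 0.05; 0 with DESeq2 and limma), with a median of −0.16. The scaffold Cul5 had 128, 76 and 8 reads in the siCtl, siSmyd5 and siPhf2 vehicle libraries and 125, 79 and 3 with KLA, and it was named after its values were seen. Of 10 tested other SOCS-box proteins 1 rose, Wsb1 (0.68), and 1 fell, Rab40c (−1.39), with a median of −0.12, where 11.2% of all genes were higher and 4.6% lower, and DESeq2 and limma called 0. Under siSmyd5 1 of 8 ligase subunits rose, the elongin gene Tceb1 (1.10, edgeR adjusted p 0.00858), and 0 fell, where 2.74% of all genes were higher and 3.65% lower. DESeq2 and limma called 0 of the ligase subunits there. Under siPhf2 their median was −1.04, against −0.13 over all genes, and Tceb1 stood at −1.91 (edgeR adjusted p 0.0532). There edgeR and DESeq2 called 0 of them and limma 1 lower. Log2 ratios of siPhf2 to siCtl also differed with transcript length. The 400 genes nearest in length to Socs1 (1217 bases) had medians of −0.60 under vehicle and −0.80 with KLA. Those nearest to Socs7 (7005 bases) stood at 0.55 and 0.14. The part of length in the median of the ligase subunits was not tested.

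Of 8 tested receptors and adaptors bound by SOCS4 to SOCS7, the insulin receptor substrate Irs2 rose with KLA (1.11, edgeR adjusted p 0.00294). Under siSmyd5 2 of 8 fell, Irs2 (−1.28) and the EGF receptor gene Egfr (−1.16). Irs2 had 62 and 131 reads under siCtl (vehicle, KLA), 17 and 32 under siSmyd5 and 7 and 7 under siPhf2. Under siPhf2 the insulin receptor gene Insr rose (1.65, edgeR adjusted p 0.0277), at 89.4 RPM against 20.5 under siCtl with vehicle but 21.6 (3 reads) against 19.5 with KLA. These 4 calls were edgeR's alone, DESeq2 and limma calling 0 in this list, and over all genes 11.2% were higher with KLA, 3.65% lower under siSmyd5 and 8.12% higher under siPhf2. The siSmyd5 and siPhf2 comparisons share the siCtl libraries. None of these calls was corrected for transcript length, and its part was not tested. The genes nearest in length to Socs7 had negative medians under siSmyd5 and positive ones under siPhf2 (above).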
